A study of Homo sapiens with 6 samples.

Results

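The genes described here are 8 genes of the interleukin-18 (IL-18) and interleukin-1 (IL-1) receptor system: the IL-18 receptor chains IL18R1 and IL18RAP, the related receptor genes IL1RL1, IL1R1, IL1R2 and IL1RAP, the cytokine gene IL18, and the kinase gene MAP4K4. They were taken by name from 28395 Entrez genes in a deposited table of normalized read counts and from 60131 Ensembl genes in a deposited RPKM table (reads per kilobase of transcript, scaled to library size). The list was chosen by gene name with the genotype difference measured in these same libraries in view, so their values in that contrast are given as a description, without a test. RNA had been sequenced from K562, an established line from a patient with chronic myeloid leukaemia, in 3 libraries labelled RUNX1 WT (wild type) and 3 labelled RUNX1 R320*. RUNX1 is a transcription factor of blood cell development, and R320* replaces an arginine codon by a stop codon. All were grown alike, in RPMI-1640 medium with fetal bovine serum, and no drug or cytokine is named. The sources used here do not give how the R320* change was made, whether the cells are 1 clone or whether libraries are separate cultures, so the spread between libraries may be technical.

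IL-18 is made as a precursor that caspase-1 cleaves. On responding cells it binds IL18R1, and IL18RAP joins as the accessory chain that is needed for signalling. IL1R1 and IL1RAP form the matching pair for IL-1, IL1RL1 (also called ST2) is the receptor chain for IL-33, and IL1R2 is a decoy that binds IL-1 without signalling. The signalling receptors share an intracellular TIR domain that recruits MYD88 and the IRAK kinases, and from there TRAF6, NF-kappaB and MAP kinases are activated. IL-18 receptors are best known from natural killer cells and T cells, and IL1RAP as a surface marker of chronic myeloid leukaemia stem cells. MAP4K4, a kinase of the germinal centre kinase family, has its gene on chromosome 2 beside those of the receptors.

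The libraries held 29058471 to 31306435 reads assigned to genes. RUNX1 itself was at 2933 ± 31.6 normalized counts in WT and 5165 ± 124 in R320* (SD, n = 3), totals that do not separate alleles and so do not check the labels. K562 markers were present in every library, with GATA1 at 8964 ± 175 in WT and 6124 ± 207 in R320* and all 10 erythroid markers listed passing the filter on low counts. Across all genes, 7685 of 14299 tested (53.7%) differed between genotypes (limma adjusted p below 0.05), and libraries of the genotypes did not overlap for 59.8%. Of all genes tested, 26.4% were past that threshold higher and 27.4% lower in R320*, and in RPKM 15.1% and 16.8%. Of the 5 members that passed the filter, 4 did not overlap. In RPKM 3 of 5 did not overlap, beside 47.0% of all genes. IL18RAP passed the filter in counts and in RPKM only through its WT values, as did IL18R1 in RPKM. Since the members were chosen with this contrast known, nothing is read from these counts. IL1RL1, IL1R2 and IL1RAP did not pass the filter. In what follows, levels are normalized read counts unless RPKM is named, ± is the SD over 3 libraries, and log2FC is the fitted difference of log2(normalized count + 1), R320* minus WT, given with its standard error (SE).

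Transcripts of both IL-18 receptor chains were plentiful enough to count in WT and close to 0 in R320*. IL18R1, the ligand-binding chain (chromosome 2, 102355796 to 102398776, GRCh38), had 347, 354 and 354 normalized counts in the WT libraries and 11.8, 11.9 and 11.4 in the R320* libraries. Each of the 3 R320* libraries held 12 reads of the gene, and the WT libraries held 332, 355 and 350. The R320* level was thus 3.33% of WT, with a 95% exact interval of 2.32% to 4.63% that covers counting error only, and the log2FC was -4.80 (SE 0.22). Libraries within a genotype lay close together, and the genotypes were far apart. In bulk RNA such a difference cannot be divided between fewer cells with the transcript and less transcript per cell.

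IL18RAP, the accessory chain (chromosome 2, 102418621 to 102452565), had 287, 269 and 293 normalized counts in the WT libraries. The R320* libraries had 0, 0 and 3.81, the last value standing for 4 reads. R320* replicates 1 and 2 had no read of it, which allows up to 3 reads in each. Over all reads the R320* level was 0.459% of WT (95% exact interval 0.125% to 1.18%, counting error only), or 218-fold lower with an interval of 84.7 to 801. The log2FC was -7.39 (SE 0.52). With so few reads in R320*, the fitted value depends on the number added before taking logs and was -5.57 when 5 was added.

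Per length of transcript, both chains were again lower in every R320* library. IL18R1 stood at 6.28, 4.30 and 7.45 RPKM in WT and 0.722, 0.261 and 0.377 in R320*. IL18RAP stood at 4.55, 4.20 and 3.33 RPKM in WT and was listed at 0, 0 and 0.0486 in R320*. The WT ranges of the chains overlapped, so no order between them can be given for WT cells. The fold of IL18R1 was smaller in this table, at 11.4 on the log2(RPKM + 0.1) scale against 27.8 in counts, and that of IL18RAP was 35.9 against 168. For IL18RAP the means were 4.03 RPKM in WT and 0.0162 in R320*. The R320* mean was below the 0.1 added before taking logs, so that number limits the fold of 35.9. The cause of the gap for IL18R1 was not tested. The tables draw IL18R1 differently: the RPKM table centres its start at position 102311529, close to that of IL1RL1 at 102311502, whereas RefSeq starts it at 102355796. Reads of IL1RL1 and of IL18R1 may therefore not be divided in the same way by both tables.

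**Figure D1:**
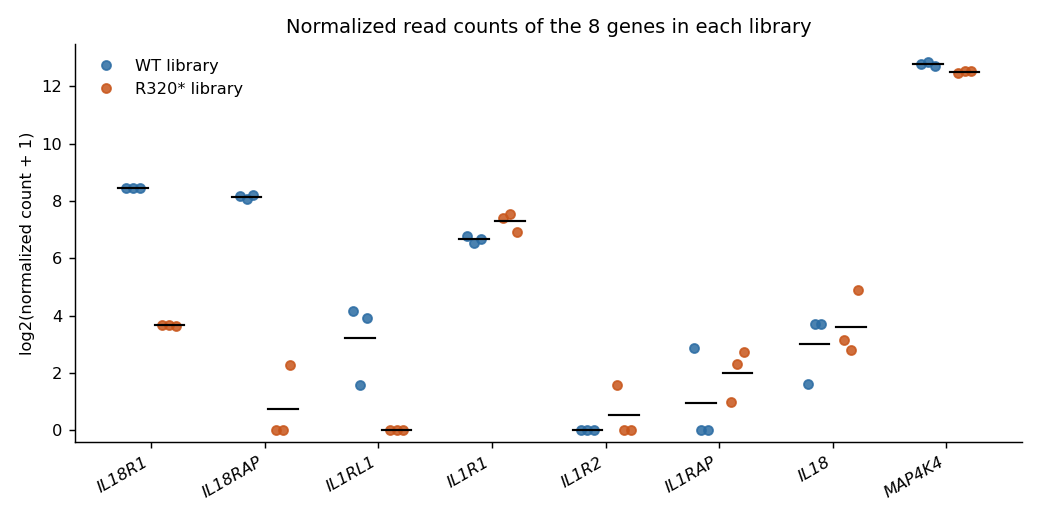
Normalized read counts of the 8 genes, on the log2(normalized count + 1) scale, in each of the 3 WT and 3 R320* libraries (points) with the mean of the log values (bars). IL18R1 and IL18RAP separate the genotypes by far more than the spread within them, IL1R1 is moderately higher in R320*, and IL1R2, IL1RAP and IL18 overlap between genotypes.

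Promoter sequences are shown for the pair of chains that are both low in R320*, and for the IL1RL1 start near which the RPKM table places IL18R1, so that the stretches before each start can be compared. RefSeq sequences (GRCh38.p14) were found for 7 of the 8 genes, in 16 windows, and the 250 bases before each start were searched on both strands for TGTGGT and TGCGGT, the core letters of RUNX sites, and for AGATAA and TGATAA, those of GATA sites. Capitals below mark these matches, which on the minus strand read as the reverse complement. The windows are chr2:102418371-102418620 for IL18RAP, chr2:102355546-102355795 and chr2:102356033-102356282 for the RefSeq starts of IL18R1, and chr2:102311313-102311562 for that start of IL1RL1, all on the plus strand.
IL18RAP: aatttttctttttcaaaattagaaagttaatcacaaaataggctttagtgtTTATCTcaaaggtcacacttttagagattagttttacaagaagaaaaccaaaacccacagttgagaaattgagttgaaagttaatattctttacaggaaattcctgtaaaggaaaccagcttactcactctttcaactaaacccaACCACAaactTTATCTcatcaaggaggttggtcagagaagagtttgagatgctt
IL18R1, first start: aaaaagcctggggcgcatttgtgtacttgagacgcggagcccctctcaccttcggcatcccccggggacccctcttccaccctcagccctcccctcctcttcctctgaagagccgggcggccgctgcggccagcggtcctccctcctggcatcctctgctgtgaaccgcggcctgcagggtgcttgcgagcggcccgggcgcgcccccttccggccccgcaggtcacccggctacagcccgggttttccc
IL18R1, second start: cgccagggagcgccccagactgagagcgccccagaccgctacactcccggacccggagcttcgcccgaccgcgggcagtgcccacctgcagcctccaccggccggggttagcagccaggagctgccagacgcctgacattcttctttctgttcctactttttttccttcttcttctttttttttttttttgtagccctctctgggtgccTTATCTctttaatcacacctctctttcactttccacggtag
IL1RL1: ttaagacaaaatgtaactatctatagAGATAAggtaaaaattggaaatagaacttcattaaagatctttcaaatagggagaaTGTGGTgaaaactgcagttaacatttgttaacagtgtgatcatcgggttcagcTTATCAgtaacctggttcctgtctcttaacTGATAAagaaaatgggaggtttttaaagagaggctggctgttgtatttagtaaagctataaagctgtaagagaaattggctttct

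In the IL18RAP window, TGTGGT was read on the minus strand from 54 to 49 bases before the start, and AGATAA on the minus strand from 44 to 39 bases and from 199 to 194 bases before it. A further RefSeq start of IL18RAP, at 102418649, has a window that mostly repeats this one and holds the same matches. The window of another IL18RAP start, at 102423160, held none of the letters searched. The first IL18R1 window, with a GC content of 70.4%, held none of the letters searched, and the second held 1 AGATAA. The IL1RL1 window held 1 TGTGGT on the plus strand and 3 GATA matches, and the window of another IL1RL1 start, at 102337257, held none. Of the 16 windows of the members, 4 held a RUNX match and 7 a GATA match. The overlapping IL18RAP windows hold the same sites, so these are counted more than once. One of the RUNX matches lay in a window of IL1R1, a gene that was not lower in R320*. Among all 35116 windows in the RefSeq table, 16.3% held a RUNX match, 14.6% a GATA match and 2.41% both. These are matches of letters in DNA, and binding was not measured here.

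The neighbouring IL1RL1, whose product with IL1RAP forms the IL-33 receptor, was at the edge of detection. It had 16.7, 1.99 and 14.2 normalized counts in WT and 0 in all 3 R320* libraries. Against a floor of 3 reads in 1 library, R320* was at least 3.68-fold lower than the WT mean of 10.96 ± 7.87. WT replicate 2 had 2 reads, fewer than that floor. In RPKM it was listed at 0.239, 0 and 0.138 in WT and 0.0283, 0 and 0 in R320*, ranges that overlap.

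IL1R1, the signalling receptor of IL-1, went the other way. It had 109, 92.7 and 100.1 normalized counts in WT and 169.6, 187 and 121 in R320*, so each R320* library was above each WT library. R320* replicate 3 lay closest to WT. The log2FC was 0.64 (SE 0.19), and in RPKM it was 0.63 (SE 0.27), from 0.969 ± 0.323 to 1.51 ± 0.0905. The end of IL1R1 is 176 kb from the start of IL18R1, and their differences had opposite signs.

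The other receptor genes were hardly read. IL1RAP, the accessory chain for both IL-1 and IL-33 receptors, had 6.28, 0 and 0 normalized counts in WT and 0.98, 3.97 and 5.72 in R320*. IL1R2, the decoy receptor, had 0 in each WT library and 1.96, 0 and 0 in R320*. Both genes overlapped between genotypes, and a difference was not detectable at this depth. The signalling chain for IL-1 was thus measured in both genotypes, while its accessory chain was at or near the floor in both.

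Transcripts of the cytokine were scarce. IL18 on chromosome 11 had 2.09, 11.96 and 12.1 normalized counts in WT and 7.84, 5.95 and 28.6 in R320*. The genotypes overlapped, and R320* replicate 3 held 30 reads against 8 and 6 in the others. The log2FC of 0.60 (SE 0.69) was smaller than its error and became -0.04 without R320* replicate 3 and -0.10 without WT replicate 1.

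A soluble and a membrane antagonist of the system were both expressed, at higher RPKM than any of the receptor members in each library. IL18BP, the secreted protein that binds IL-18, stood at 8.64 ± 0.384 RPKM in WT and 9.51 ± 0.590 in R320*. In counts it rose from 627 ± 28.6 to 783 ± 42.2 (log2FC 0.32, SE 0.08, limma adjusted p = 0.00214), but it was not called in RPKM (limma adjusted p = 0.259), and its span overlaps the abundant NUMA1. SIGIRR, a receptor of the same family that dampens IL-1 and IL-18 signalling, stood at 32.1 ± 2.14 RPKM in WT and 33.7 ± 0.274 in R320*. In counts it rose from 657 ± 31.5 to 782 ± 53.8 (log2FC 0.25, limma adjusted p = 0.0124), a call that was lost in RPKM (limma adjusted p = 0.397), without R320* replicate 3 (limma adjusted p = 0.0527) and without WT replicate 3 (limma adjusted p = 0.0502).

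Ordered per length in WT cells, the mean RPKM ran from SIGIRR and IL18BP to IL18R1, IL18RAP, IL1R1 at 0.969, IL18 at 0.485, IL1RAP at 0.163, IL1RL1 at 0.126 and IL1R2 at 0. IL18R1 and IL18RAP overlapped across WT libraries, so their means give no order between them. IL18, IL1RAP and IL1RL1 also overlapped one another across WT libraries. In R320* cells IL1R1 at 1.51 RPKM led the receptor members, followed by IL18R1 at 0.453 and IL1RAP at 0.315, and the ranges of the latter pair overlapped. IL18RAP at 0.0162 RPKM was then among the lowest, with IL1R2 at 0.0236 and IL1RL1 at 0.00945, and these 3 overlapped.

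**Figure D2:**
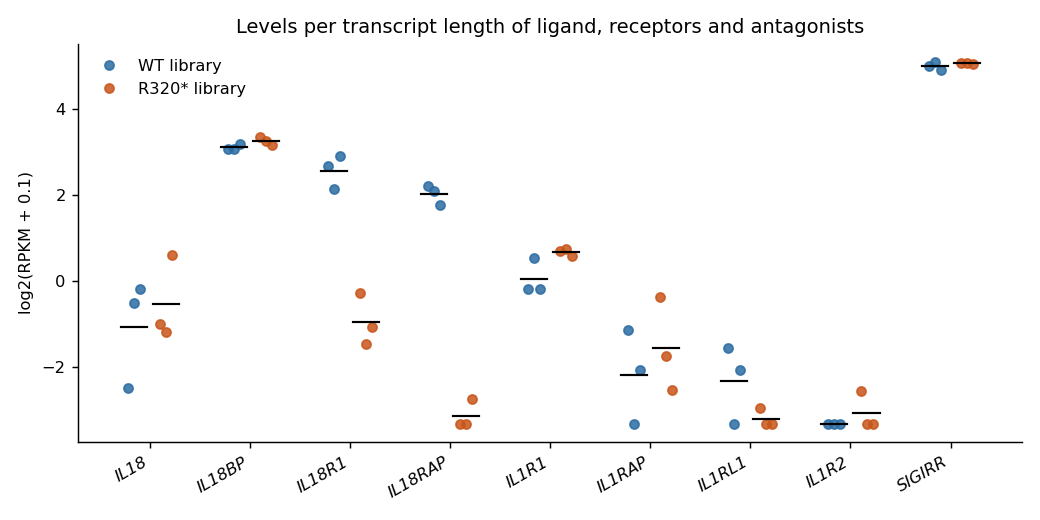
RPKM on the log2(RPKM + 0.1) scale for the cytokine IL18, its antagonist IL18BP and the receptor genes, in each WT and R320* library (points) with the mean of the log values (bars). SIGIRR and IL18BP lie above the other genes in both genotypes, and IL18R1 and IL18RAP drop from above IL1R1 in WT to below it in R320*.

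Of the 8 members, 6 lie within 755 kb of chromosome 2, in the order MAP4K4, IL1R2, IL1R1, IL1RL1, IL18R1 and IL18RAP. MAP4K4, at the near end, was the most abundant member. It had 7051, 7327 and 6683 normalized counts in WT and 5707, 5922 and 5958 in R320* (log2FC -0.26, SE 0.04). Its RPKM values, 41.7, 42.6 and 39.2 in WT and 37.8, 39.9 and 38.01 in R320*, overlapped between genotypes, and the log2FC there was -0.09 (SE 0.05). The end of IL18R1 is 19.8 kb from the start of IL18RAP, and the next gene with many reads on the far side, SLC9A2, starts 167 kb beyond IL18RAP.

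Among the genes within 1 Mb of this stretch that are not members, 8 were tested, and 5 were lower and 1 higher in R320* (limma adjusted p below 0.05). That is 75.0% called, of few genes, beside 53.7% of all genes, and in RPKM only RPL31 (lower) and RNF149 (higher) passed. On the far side SLC9A2, a sodium-proton exchanger, was 198 ± 30.04 and 218 ± 6.92 (limma adjusted p = 0.396), and SLC67A2, listed as MFSD9 in the RPKM table, was 598 ± 76.9 and 519 ± 25.3 (limma adjusted p = 0.101, and 0.0164 without WT replicate 1). TMEM182 fell from 232 ± 25.0 to 156 ± 25.3 (log2FC -0.57, limma adjusted p = 0.0053), but not in RPKM (limma adjusted p = 0.558). On the near side RNF149, a ubiquitin ligase, rose with a log2FC of 0.28 (limma adjusted p = 0.00253). CNOT11, a subunit of the CCR4-NOT complex, and the ribosomal protein gene RPL31 fell by 0.28 and 0.24 on the log2 scale (limma adjusted p = 5.9e-05 and 0.000173). TBC1D8 fell from 250.4 ± 17.0 to 133 ± 15.6 (log2FC -0.91, limma adjusted p = 6.5e-05), with a span shared with the far more abundant RPL31, and its antisense neighbour TBC1D8-AS1 fell from 35.2 ± 4.06 to 7.73 ± 4.95 (log2FC -2.19, limma adjusted p = 0.000784). Use of strand in counting is not stated, so reads of overlapping and antisense genes may be mixed. None of these 8 had a log2FC as low as that of IL18R1 or IL18RAP.

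Inside the IL18RAP gene, the RPKM table lists a pair of long noncoding RNAs on the same strand. AC007278.1 was at 0.7505, 0.743 and 1.15 RPKM in WT and at 0, 0.0516 and 0 in R320* (log2FC -3.07 on the log2(RPKM + 0.1) scale). Its R320* values were below the 0.1 added before taking logs, which limits that difference. As for IL18RAP, the values are a description without a test. AC007278.2 was at 0.169, 0.245 and 1.004 RPKM in WT and listed at 0 in each R320* library. Reads from these and from IL18RAP cannot be told apart with certainty, since they share span and strand.

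**Figure D3:**
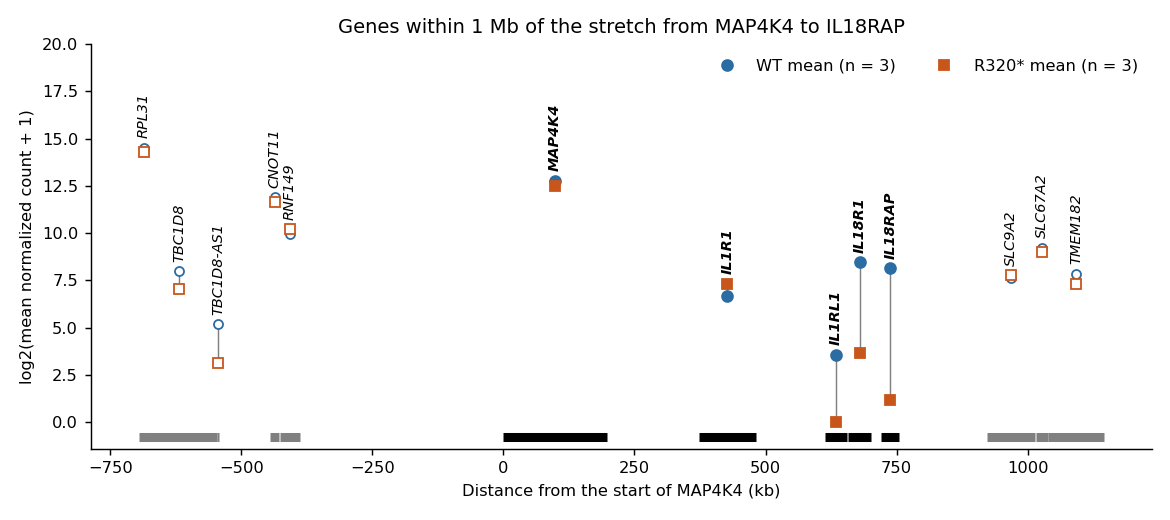
Mean normalized count of each gene with reads (at least 3 over both means together), as log2(mean + 1), against its distance from the start of MAP4K4 in kb, with WT as circles and R320* as squares (n = 3 libraries each). Filled symbols and black bars are members and open symbols and grey bars are other genes, with the bars drawn over each gene's span. The drop is deep at IL18R1 and IL18RAP, IL1R1 is higher in R320*, and the means of SLC9A2 beyond IL18RAP lie close together.

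The genes that act with these receptors were described from 7 lists of 70 genes in all, of which 50 were tested. In counts 13 were higher, 16 lower and 21 did not pass (limma adjusted p below 0.05), so 58.0% were called against 53.7% of all genes. Their median log2FC was -0.02 against 0.01 for all genes. In RPKM 5 were higher and 12 lower of 49 tested, against 31.9% called among all genes. The excess of lower over higher calls in counts was not kept under quantile normalization, with 15 higher and 13 lower, or upper quartile scaling, with 15 and 14.

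Of the other ligands and antagonists, only IL18BP passed the filter, and 5 of the 11 had no read in any library, IL33 among them. IL1B, the classical inflammatory IL-1 ligand, had at most 6.86 normalized counts in a library. Among 10 genes of ligand maturation and release, 5 were tested, with 2 lower and 1 higher, beside 27.4% and 26.4% of all genes. CASP4, an inflammatory caspase, fell from 42.1 ± 2.32 to 0.654 ± 1.13 (log2FC -4.91, SE 0.62, limma adjusted p = 4.5e-06). AIM2, a sensor of cytosolic DNA, fell from 111 ± 14.3 to 29.9 ± 7.27 (log2FC -1.87, limma adjusted p = 1.1e-05), with a span that overlaps IFI16. NLRP1, another inflammasome sensor, rose from 4405 ± 46.8 to 5533 ± 134 (log2FC 0.33, limma adjusted p = 1.7e-06). NLRP3 had no read, and CASP1, the protease that cleaves the IL-18 precursor, had 0, 3.99 and 4.04 normalized counts in WT and 0 in every R320* library.

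Receptor-proximal signalling genes were lower for 7 of 15 tested and higher for 4, beside 27.4% and 26.4% of all genes. Their median log2FC was -0.20. IRAK4, the first kinase recruited by MYD88, had 1577, 1652 and 1648 normalized counts in WT and 749, 903 and 764 in R320* (log2FC -1.02, SE 0.07, limma adjusted p = 4.7e-09). The adaptor MYD88, named after its values were seen because every signalling receptor here uses it, fell from 991 ± 25.9 to 655 ± 63.1 (log2FC -0.60, limma adjusted p = 6.9e-06). TAB3, an adaptor of the kinase TAK1, fell by 0.45 on the log2 scale (limma adjusted p = 6.3e-06). UBE2N, the ubiquitin-conjugating enzyme that works with TRAF6, fell by 0.39 (limma adjusted p = 3.9e-07), with a span that overlaps the abundant NUDT4. IRAK4, MYD88, TAB3 and UBE2N were also lower in RPKM (limma adjusted p from 0.00206 to 0.0265). TRAF6 was 820.2 ± 50.8 and 807 ± 30.7 (limma adjusted p = 0.813).

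In the NF-kappaB arm 2 of 13 were higher, 4 lower and 7 did not pass, beside 26.4% higher and 27.4% lower of all genes. The median log2FC of the arm was 0.01. TNFAIP3, an inhibitor of this pathway and one of its targets, rose from 52.6 ± 15.6 to 178 ± 21.2 (log2FC 1.78, SE 0.23, limma adjusted p = 6.9e-06). NFKB1, encoding the p105 precursor, rose from 752 ± 9.98 to 1192 ± 57.6 (log2FC 0.66, limma adjusted p = 2.4e-07), with an antisense gene, NFKB1-AS1, over its span. NFKBIZ, an inducible nuclear regulator, fell from 262 ± 40.4 to 128 ± 12.9 (log2FC -1.02, limma adjusted p = 3.6e-05), with a span that overlaps NXPE3.

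In the MAP kinase arm 2 of 9 were higher and 3 lower, beside 26.4% and 27.4% of all genes. MAP2K7, an activator of JNK, rose by 0.39 on the log2 scale (limma adjusted p = 5.3e-06), and the p38 kinase MAPK14 and its substrate MAPKAPK2 fell by 0.30 and 0.17 on the log2 scale (limma adjusted p = 1e-04 and 0.00175). Among 6 kinases related to MAP4K4, 2 were higher and 0 lower, while MAP4K4 itself was slightly lower in counts. MINK1 rose from 3952 ± 109 to 5587 ± 189 (log2FC 0.50, limma adjusted p = 2.8e-08). MAP4K5 had a log2FC of 0.22 (limma adjusted p = 0.0298), and its call was lost without the intensity trend and without any 1 of 4 libraries, R320* replicates 1 and 2 and WT replicates 2 and 3 (limma adjusted p from 0.0663 to 0.173). TNIK had a log2FC of 0.14 and did not pass (limma adjusted p = 0.0601), but did without WT replicate 2 (limma adjusted p = 0.0323) and under quantile normalization, upper quartile scaling and the replicate block.

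**Figure D4:**
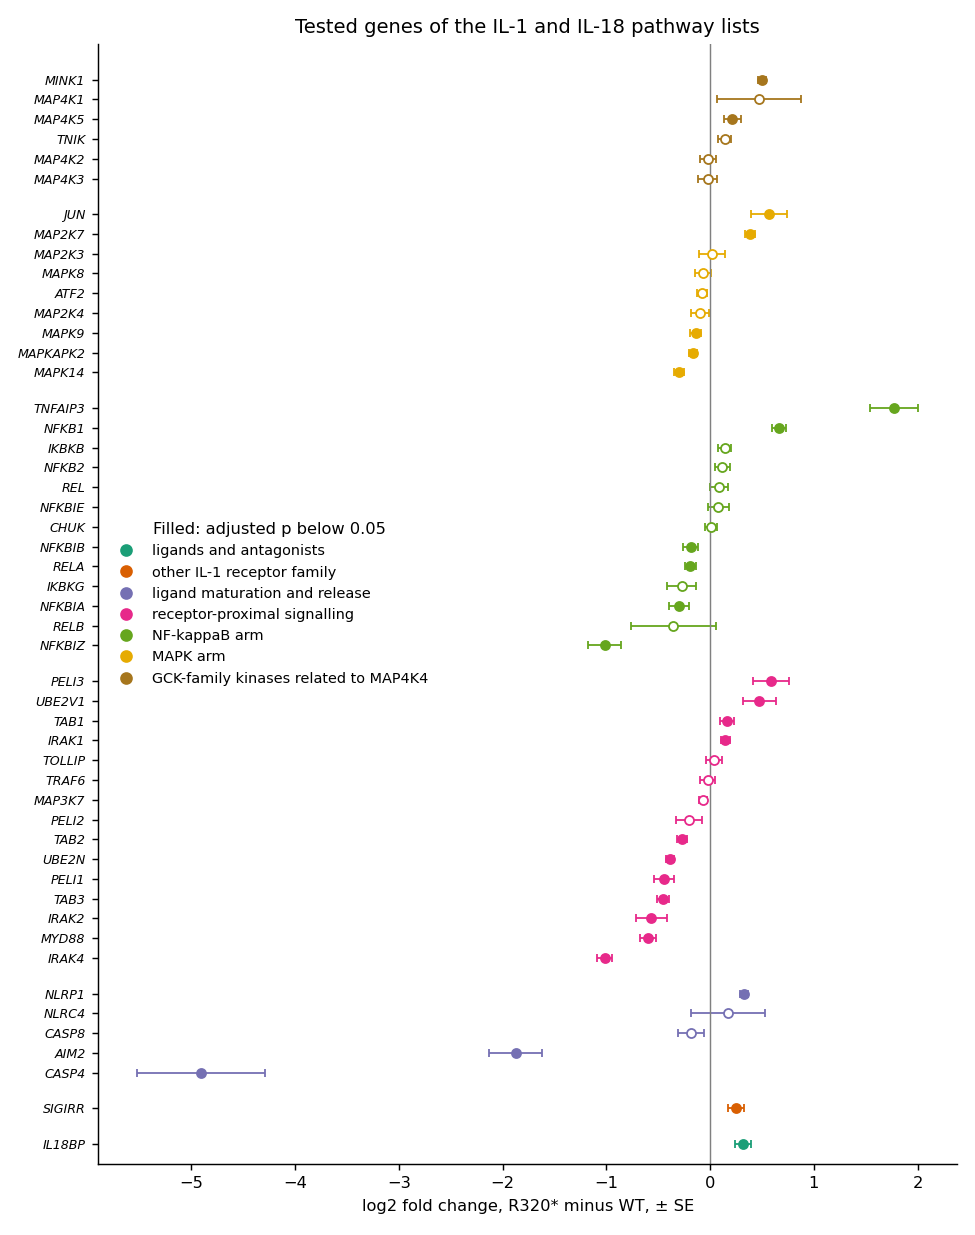
Fitted log2 difference, R320* minus WT, with its SE from limma for the 50 tested genes of the 7 pathway lists, by list (colour), filled where the adjusted p was below 0.05 over all 14299 genes. Most genes lie within 1 log2 unit of 0, with CASP4, AIM2, IRAK4 and NFKBIZ below and TNFAIP3 above that range.

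Markers of cells that usually carry the IL-18 receptor were examined in the same libraries. Of 12 T cell and natural killer cell markers 5 were tested. Of these, 3 were lower and 0 higher, beside 27.4% and 26.4% of all genes. PRF1, encoding perforin, fell from 313 ± 26.1 to 34.9 ± 11.5 (log2FC -3.18, limma adjusted p = 6.5e-09), KLRF1 from 49.9 ± 3.24 to 17.6 ± 2.11, and CD3D from 728 ± 4.32 to 467 ± 47.7. CD3G was 211 ± 35.5 in WT and 201 ± 10.8 in R320* (limma adjusted p = 0.768). NKG7 was 21.4 ± 7.04 in WT and 25.3 ± 5.80 in R320* (limma adjusted p = 0.603). In RPKM NKG7 was 0.426 ± 0.189 and 1.05 ± 0.660 (limma adjusted p = 0.166). The summed level of the 12 markers was 1297 to 1382 in WT and 721 to 798 in R320*, most of it CD3D. CD247 had no more than 2.09 normalized counts. IFNG and TBX21 were at 0 in both tables. KLRD1 was at 0 in the count table but at 1.24 ± 0.288 RPKM in WT and 1.59 ± 0.340 in R320* (limma adjusted p = 0.363). For mast cells and basophils, which also carry IL1RL1, the sum was 7134 to 7424 in WT and 8966 to 9250 in R320*, most of it GATA2, a gene that K562 cells also use. Of the 4 tested, 3 were higher in R320*, beside 26.4% of all genes. The other, PRG2, overlapped between genotypes, at 80.0 ± 24.8 in WT and 87.2 ± 13.1 in R320* (limma adjusted p = 0.614). HDC, CMA1 and MS4A2 did not pass the filter, and each overlapped between genotypes. TPSAB1, TPSB2, CPA3 and CLC were at 0 in counts and in RPKM. KIT, the receptor of stem cell factor, rose from 183 ± 25.4 to 956 ± 127 (log2FC 2.38, limma adjusted p = 9.4e-11). FCER1A, a chain of the IgE receptor, rose from 16.6 ± 3.14 to 85.1 ± 9.01 (log2FC 2.30, limma adjusted p = 5e-06). KIT and FCER1A also rose in RPKM (limma adjusted p = 8.3e-05 and 0.00098), and GATA2, from 6944 ± 199 to 7939 ± 141 in counts (log2FC 0.19, limma adjusted p = 0.000279), did not pass there (limma adjusted p = 0.0664). For monocytes and neutrophils the sum was 54.4 to 69.8 in WT and 13.7 to 17.9 in R320*, with 6 of 10 markers at 0 in the count table. Most of that sum in WT was LYZ, encoding lysozyme, which fell from 48.04 ± 7.66 to 0.327 ± 0.566 in counts (log2FC -5.28, limma adjusted p = 1.1e-06) but did not pass in RPKM, at 6.32 ± 0.661 and 4.61 ± 0.75 (limma adjusted p = 0.0616). Of the 6 at 0 in counts, S100A8, S100A9 and S100A12 were also at 0 in RPKM. AZU1, a neutrophil granule protein, was at 5.57 ± 0.684 RPKM in WT and fell to 3.79 ± 0.324 in R320* (limma adjusted p = 0.0205), and FCN1 and ELANE had at most 0.0302 and 0.124 RPKM in a library. For stromal and endothelial cells it was 3485 to 3579 and 2758 to 2978, most of it COL1A2, with CDH5 at 0 in both tables. The part of these markers in the results was not tested.

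Genes with profiles most like those of the receptor chains were found by the Euclidean distance between log2(normalized count + 1) values over the 6 libraries. Nearest to IL18RAP were RFPL4B, MAGED1, MEIS1, ZNF626 and C11orf21 (whose span overlaps TSPAN32), at distances of 2.39 to 2.82. Nearest to IL18R1 were LGALS3BP, GBP4, ASCL2, EGF and THBS1, at distances of 1.09 to 1.36. MEIS1, a homeobox factor of blood progenitors, had 143 ± 26.6 normalized counts in WT and 1.30 ± 1.12 in R320*, and GBP4, an interferon-induced GTPase, had 239.9 ± 21.2 and 14.6 ± 0.682. Of these 10 genes 1, MEIS1, lies on chromosome 2. The distance reflects the level and the genotype difference together.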

How the data were processed

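The normalized read counts were deposited as signal values, counts per Entrez gene divided by 1 factor per library by the authors. Every value was a whole multiple of the library's smallest value (tolerance 1e-06), taken as 1 read. RPKM values were deposited per Ensembl gene. They summed to 721735 to 786389 per library, so another per-million scale is possible. HISAT2, featureCounts, DESeq2, Salmon and hg38 are named in the submitters' processing notes, without roles, versions or use of strand.

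Genes with at least 10 normalized counts (0.5 RPKM) in at least 3 libraries were fitted as log2(value + 1) (RPKM + 0.1) with limma 3.58.1 (R 4.3.3, intensity trend), adjusted by Benjamini-Hochberg over all genes and called below 0.05. The fit was also run on simulated data in which few genes were changed. That run does not check calls where 53.7% of genes differ. Python 3.11.15 was used for the rest. Symbols and positions came from RefSeq (GRCh38.p14).

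Members and lists were chosen with earlier results of these data known. Named genes were all members, tested neighbours within 1 Mb, the 5 most similar profiles, and per pathway list those called with a fitted log2 difference of 1 or more in size and the 3 smallest adjusted p-values. MYD88, TRAF6, IL1B, IL33, NLRP3, CASP1 and the single markers were named after their values were seen. Alternatives changed pseudocount, filter, scaling, variance model, block and libraries.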

Additional observations from a re-analysis of the deposited data

How the results depend on the processing

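Over the alternatives, the number of pathway genes called in counts (29) ranged from 24 to 31, that of all genes (7685) from 6692 to 7854, that of neighbours (6) from 5 to 7 and that of pathway genes called in RPKM (17) from 12 to 18. With 1 library left out the ranges were 25 to 26, 6931 to 7314, 6 to 7 and 12 to 14. With the replicate number as a block the counts were 31, 7854, 6 and 17. Same-numbered libraries did not deviate together (r of 0.03, -0.003 and -0.003 across genes). With so few libraries these values cannot show whether the numbers pair samples, and no label says so. IL18 changed sign without R320* replicate 3 (-0.04) and without WT replicate 1 (-0.10), and was 1.00 without R320* replicate 2. The direction of IL18R1, IL18RAP, IL1R1 and MAP4K4 held in all alternatives run, while the log2 fold change ranged from -4.85 to -3.52 for IL18R1 and from -8.15 to -5.17 for IL18RAP. Of 523 values for named genes that are not members, 511 kept direction and call, 7 lost the call and 5 gained it. The planned edgeR and DESeq2 tests on recovered reads were left out. Reads limit IL1RL1, IL1R2, IL1RAP and IL18.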
